A study of Mus musculus with 12 samples.

Results

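The comparison described here set 3 libraries of Sox1-activated neural progenitor cells, called NPC(+), against the 3 libraries labelled as neural rosettes (NR), 6 of the 12 libraries in the series. All 6 are labelled as sorted, and the rule that picks them uses that label and the cell type, although the comparison itself was chosen with earlier results of these data known. Of 45706 genes in the count table, 17003 were expressed highly enough to be tested, and each difference below is NPC(+) minus NR.

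Both populations came from C57BL/6 mouse embryonic stem cells that carry GFP in 1 copy of the Sox1 gene, so that green fluorescence reports the Sox1 promoter. NPCs are expanded in EGF and bFGF, give mostly glia and, by the study's account, do not express Sox1. Their libraries nevertheless held some Sox1 transcript, as given below. NPC(+) are NPCs that stably carry dCas9-VP64, a catalytically dead Cas9 fused to a transcriptional activator, and gRNAs aimed at the Sox1 promoter, collected after Sox1-GFP came on. The dCas9-VP64 lines were grown from single cells and the gRNA carriers were selected with puromycin, so an NPC(+) library stands for cells that answered the activation in a clonal background. NR are GFP-sorted neuroepithelial cells from the same reporter cells, made by neural induction of the stem cells with no activator described for them. The other 6 libraries are unsorted NPC and unsorted neuroepithelial cells (NSC). Their levels serve below as landmarks, and they also entered the choice of genes tested, the scaling and the estimate of spread.

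Sox1 is a SoxB1 transcription factor of the early neural plate and neural tube. Neuroepithelial cells that express it form rosettes around a lumen, keep tight apical junctions and give rise to neurons first. As development goes on they turn into radial glia and glial progenitors, which lose Sox1 and take up genes of astrocytes and oligodendrocyte precursors. The comparison asks in which genes progenitors with a switched-on Sox1 promoter differ from the libraries labelled as sorted neuroepithelial cells, whose own levels of Sox1 and of pluripotency genes are given below.

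The activator was directed to the promoter of Sox1 (chromosome 8, 12395295 to 12400126, plus strand, GRCm38), upstream of its start site. These coordinates are those of GENCODE, which starts the gene further upstream than RefSeq does. The 250 bases before the RefSeq start, chr8:12395269-12395518 in the table for GRCm38.p6, are printed because they are the kind of stretch the gRNAs were designed for, and most of them lie inside the gene as GENCODE draws it. Which of the start sites the gRNA design used is not given in the sources used here. The capitals mark its 29 CpG dinucleotides, the sites at which DNA can be methylated.
Sox1 promoter: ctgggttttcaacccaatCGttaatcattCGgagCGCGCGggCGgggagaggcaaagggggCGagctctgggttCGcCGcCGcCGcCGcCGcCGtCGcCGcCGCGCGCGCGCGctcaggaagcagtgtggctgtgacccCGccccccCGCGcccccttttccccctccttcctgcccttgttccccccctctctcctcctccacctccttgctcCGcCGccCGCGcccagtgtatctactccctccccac
Its GC content was 71.2%. In the same 250-base window of the 32851 promoters in the table, the median was 6 CpG, and 6.78% held as many CpG as the Sox1 promoter or more.

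Sox1 itself was at a similar level in most of the libraries on both sides. It was measured at 20.2, 20.9 and 21.7 CPM (counts scaled to an equal library total) in NPC(+) and at 4.61, 19.98 and 19.2 CPM in the libraries labelled NR. Replicate 1 of NR was thus far below the other two, and the groups did not overlap although NR replicates 2 and 3 nearly reached NPC(+). The log2 fold change was 0.5 (SE 0.37, adjusted p = 0.238), which did not pass the test (edgeR quasi-likelihood, Benjamini-Hochberg adjusted). Without any filter on low counts the fitted value was 0.47 and its adjusted p was 0.0159, so whether Sox1 passed the adjusted test depended on that filter, and it lay below the 4-fold limit of a call either way. Unsorted NPC held 5.41 ± 0.582 CPM (mean ± SD, n = 3, as in later values of this form), a mean above NR replicate 1. NSC held 55.1 ± 8.66 CPM, above every NR library.

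The 3 NPC(+) libraries held 3407066 to 6315574 counts and the 3 labelled NR held 16707006 to 34594885. This gap sets what can be seen, since 3 counts were worth on average 0.613 CPM in NPC(+) and 0.122 CPM in NR. Log2 CPM correlated at 0.980 to 0.984 within NPC(+), at 0.974 to 0.988 within NR and at 0.753 to 0.796 between the groups, across genes, which are not independent replicates. NPC(+) replicates varied little, with a biological coefficient of variation of 4.07%, against 21.1% for NR. Chi-square per degree of freedom between libraries was 1.54 to 2.07 in NPC(+) and 18.1 to 47.8 in NR. The edgeR fit shares its estimate of spread over all 12 libraries, so its SE and p-values do not reflect the NR spread alone. With the 6 compared libraries alone, its adjusted p for the gene Olig1 rose from 6.73e-14 to 2.32e-09. Mitochondrially encoded genes took 1.56 to 1.67% of the counts in NPC(+) and 0.515 to 0.554% in NR. The study describes its biological replicates as made on different days and in different clonal lines.

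Before the results, the label of the NR libraries needs a limit. All 3 carried genes of pluripotent cells at high levels, genes that neuroepithelial cells switch off. Pou5f1, which encodes the core pluripotency factor Oct4 (chromosome 17, 35506018 to 35510772), was at 133, 74.7 and 95.4 CPM in NR and at 0.289, 0.157 and 0.50 CPM in NPC(+). Dppa5a, an RNA-binding protein gene of embryonic stem cells, reached 1610, 812 and 1271 CPM in NR against 2.31, 2.04 and 4.5 in NPC(+), a log2 fold change of -8.67 (SE 0.53, adjusted p = 7.1e-09). In both genes NR replicate 1 was highest and NR replicate 2 lowest, and no NR value came near an NPC(+) value.

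Of the 20 pluripotency genes listed, all were tested, 18 were called higher in NR and the remaining 2, Tbx3 (-1.68) and Pou3f1 (-0.57), passed the adjusted test in the same direction but not the 4-fold limit. A call here needs a fold over 4 with a p under 0.05 and an adjusted p under 0.1. Among all genes tested 20.04% were called higher in NR. The homeobox factor Nanog was at 180, 113 and 141 CPM in NR and at 1.16, 1.1 and 0.50 CPM in NPC(+), and Zfp42, the stem cell marker Rex1, at 510, 293 and 346 CPM against 1.74, 1.25 and 0.667. The FGF ligand gene Fgf4 had no more than 1 count in any NPC(+) library and 108, 57.1 and 83.1 CPM in NR, at least 135-fold higher. The summed level of the 20 genes was 2375 to 4395 CPM in NR, 276 to 416 CPM in NSC, 75.5 to 84.2 CPM in NPC(+) and 70.8 to 86.5 CPM in NPC. Thus the sorted libraries held more of these transcripts than the unsorted NSC libraries, and the 3 libraries are called "labelled NR" or NR by label only. Whether they hold the sorted population that the label names could not be settled from the data, and every NPC(+) minus NR value below is a difference from the libraries so labelled. In bulk RNA, more cells of a type and more RNA per cell cannot be told apart, and the part of such cells in the differences that follow was not tested.

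**Figure D1:**
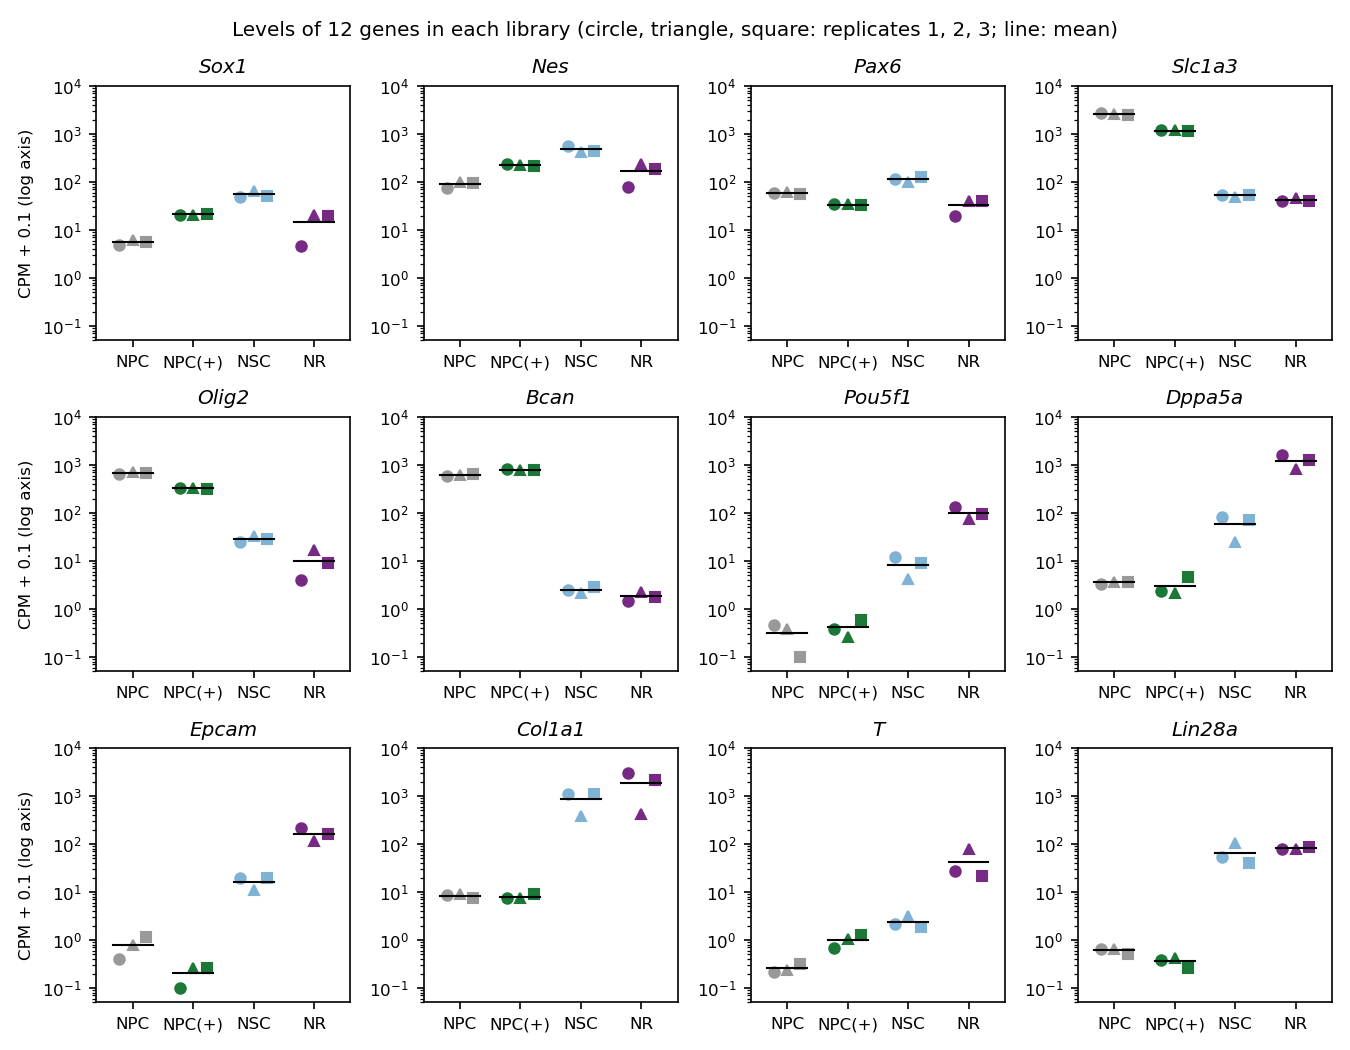
Levels of 12 genes in each of the 12 libraries, by group (horizontal axis), as CPM plus 0.1 on a log axis (vertical), with replicates as circles, triangles and squares and a line at the group mean. Sox1, Nes and Pax6 lay close in NPC(+) and in NR replicates 2 and 3, Slc1a3, Olig2 and Bcan were high in both NPC groups, and Pou5f1, Dppa5a and Epcam were highest in NR and lower in NSC.

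Across the transcriptome NPC(+) and NR differed widely, with more genes called higher in NR than in NPC(+). In all, 1029 of 17003 genes (6.05%) were called higher in NPC(+) and 3408 (20.04%) higher in NR. Passing the adjusted test at any fold, 5235 genes (30.8%) were higher in NPC(+) and 7299 (42.9%) higher in NR. The 3 values of one group lay wholly above the 3 of the other for 1019 of the 1029 genes and for 3389 of the 3408. Over all genes tested this held for 75.9%, with NPC(+) above for 31.8% and NR above for 44.1%.

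The called genes were unlike in level on the lower side, where the depth gap given above also bears on the counts. NPC(+) libraries held 3 counts or fewer each for 2268 of the 3408 genes higher in NR, whereas NR was that low for 82 of the 1029 genes higher in NPC(+). The fitted fold exceeded 16 for 2114 genes higher in NR and for 216 higher in NPC(+). Genes called higher in NR were protein coding in 90.6% of cases and those higher in NPC(+) in 71.2%, against 85.8% of all genes tested. Restricted to 8981 genes with a mean of at least 20 CPM in either group, 422 were called higher in NPC(+) and 846 higher in NR, and 5927 (66.0%) differed by less than a fitted fold of 2. When all libraries were thinned to the smallest total, 750 and 2026 genes were called, and with a demand for 10 counts in every library, which removes genes absent from one group, 481 and 365.

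**Figure D2:**
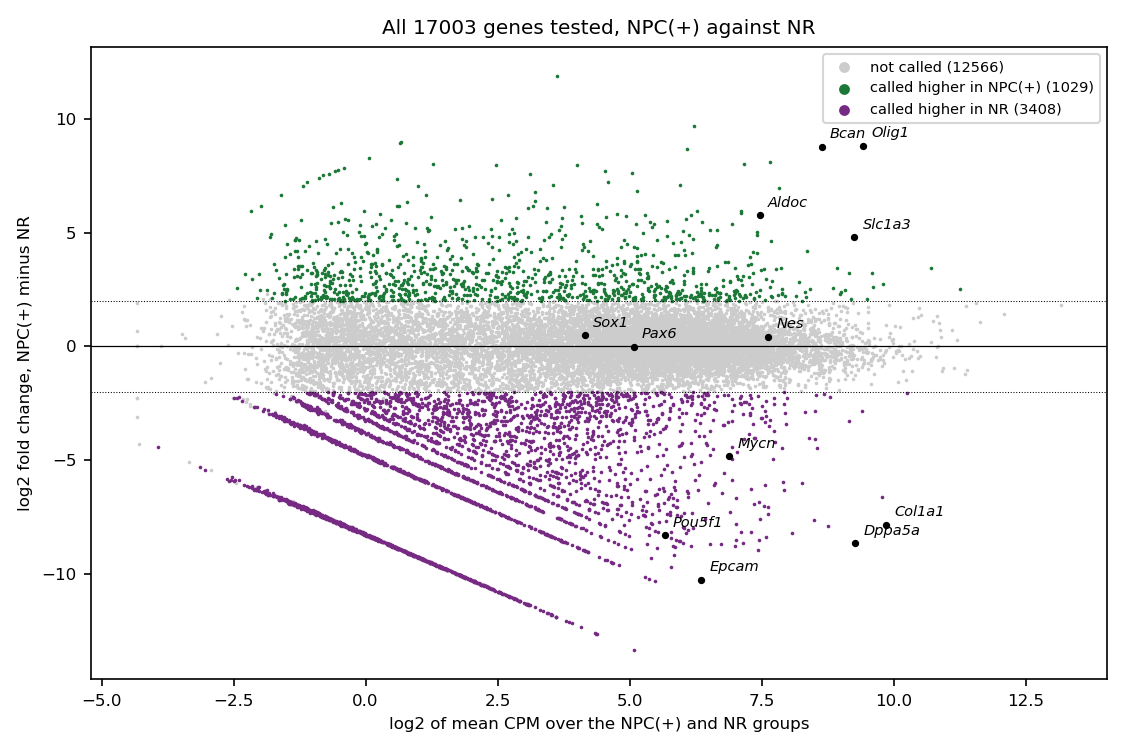
The log2 fold change of NPC(+) minus NR (vertical axis) against the log2 of the mean CPM of both groups (horizontal axis) for 17003 genes, with the 1029 called higher in NPC(+) in green, the 3408 called higher in NR in purple and the rest in grey. The slanting purple bands are genes with 0 or a few counts in NPC(+), and the dotted lines mark a fold of 4.

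Glial genes were the list with the largest share called higher in NPC(+). Of 24 genes of glial progenitors and radial glia, 14 were called higher in NPC(+) and 1 in NR, with a median log2 fold change of 2.43, against 6.05% and 20.04% called and a median of -0.19 over all genes tested. A second gene was called higher in NR without NPC(+) replicate 2 or 3. All 24 passed the adjusted test, 20 of them higher in NPC(+). Their summed level was 6576 to 6716 CPM in NPC(+) and 915 to 1108 CPM in NR. In the landmark groups it was 10686.5 to 11527 CPM in NPC, above NPC(+), and 1090 to 1741 CPM in NSC.

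Bcan, which encodes the brain chondroitin sulphate proteoglycan brevican (chromosome 3, 87987531 to 88000230), was at 812, 778 and 788 CPM in NPC(+) and at 1.35, 2.19 and 1.66 CPM in NR, a log2 fold change of 8.79 (SE 0.15, adjusted p = 7.25e-14). Slc1a3, the glial glutamate transporter GLAST, was at 1191, 1203 and 1146 CPM against 39.2, 47.3 and 40.2 CPM (4.8, SE 0.10). Aldoc, a brain aldolase of astrocytes, was at 347, 357 and 337 CPM against 6.64, 6.12 and 6.23 CPM (5.78, SE 0.10). In these genes NPC(+) libraries differed among themselves by little and none overlapped with NR. The calcium-binding protein gene S100b was higher by 6.8 on the log2 scale. Nfia, a nuclear factor that switches neural stem cells to gliogenesis, was at 368, 395 and 422 CPM against 17.4, 10.2 and 20.8 CPM, and its relatives Nfib (3.44) and Nfix (2.03) were called in the same direction.

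Gfap and Aqp4 were low on both sides. Gfap, the intermediate filament of mature astrocytes, was called higher in NPC(+) but at 2.6, 2.98 and 3.67 CPM against 0.123, 0.193 and 0.225 CPM. The water channel gene Aqp4 was at 0, 0.627 and 0.333 CPM in NPC(+) and at 1.17, 1.13 and 0.842 CPM in NR. The secreted chaperone gene Clu was the 1 glial gene called higher in NR, at 35.7, 40.8 and 24.7 CPM against 3.18, 3.76 and 3.83 CPM in NPC(+). Sox9, which specifies glial precursors and is present in neuroepithelium too, was at 93.7, 92 and 94.5 CPM in NPC(+) and 88.1, 221 and 114 CPM in NR, with overlapping groups and a log2 fold change of -0.6 (adjusted p = 0.0652).

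Oligodendrocyte lineage genes were called in both directions. Of 16 listed, 13 were tested, and 4 were called in each direction (30.8% each, against 6.05% higher in NPC(+) and 20.04% higher in NR over all genes tested). The median was -0.85, or 0.00 with genes at the count floor set to their bounds. The summed level of the 13 was 1993 to 2161 CPM in NPC(+) and 153 to 164 CPM in NR. It was 3112 to 3233 CPM in NPC and 205 to 219 CPM in NSC. Olig1, a bHLH factor of oligodendrocyte precursors (chromosome 16, 91269772 to 91271933), was at 1417, 1397 and 1301 CPM against 2.77, 3.38 and 2.84 CPM (8.83, SE 0.14, adjusted p = 6.73e-14). Olig2 was at 333, 339 and 319 CPM against 4.0, 16.7 and 8.9 CPM (5.02), and the other two called higher in NPC(+) were Sox8 (4.73) and Bcas1 (5.97). The 4 higher in NR were Mbp, which encodes myelin basic protein, Myrf, the regulator of myelin genes, Nkx2-2 and Cspg4. Myrf was at 61.1, 32.3 and 48.7 CPM in NR and 0.868, 0.627 and 2.0 CPM in NPC(+), a log2 fold change of -5.3 that became -6.04 without NPC(+) replicate 3. Mbp was at 17.5, 17.8 and 19.7 CPM in NR with a single count among the NPC(+) libraries, at least 30.0-fold higher. The PDGF receptor gene Pdgfra, typical of oligodendrocyte precursors, was low in NPC(+) at 6.36, 4.55 and 3.0 CPM and passed the adjusted test higher in NR (-1.35).

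**Figure D3:**
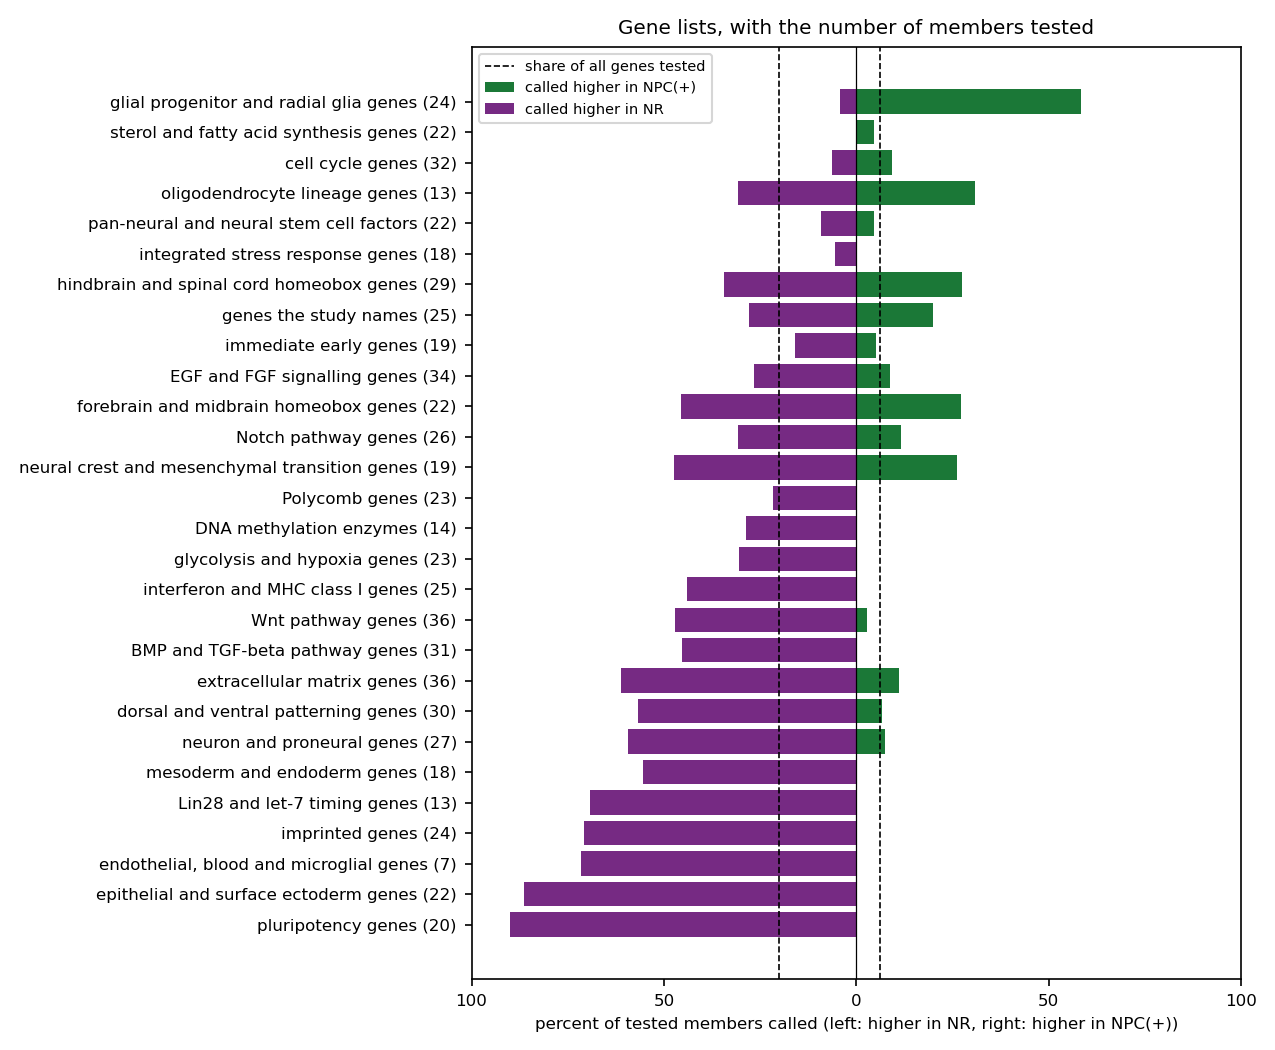
The percentage of tested members of each gene list called higher in NPC(+) (green, to the right) or in NR (purple, to the left), with the number tested in brackets and dashed lines at the shares over all genes, 6.05% and 20.04%. Glial genes stood furthest to the NPC(+) side, with 14 of 24 called, and pluripotency genes furthest to the NR side, with 18 of 20.

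Factors shared by neural progenitors of all stages were called in few cases. Of 22 pan-neural genes, all tested, 1 was called higher in NPC(+) (4.55%) and 2 higher in NR (9.09%), with a median log2 fold change of 0.18. Over all genes tested the shares were 6.05% and 20.04%. Without NR replicate 1 the pan-neural counts were 0 and 4, and without NPC(+) replicate 2 none was called higher in NPC(+). Pax6, a homeobox factor of neuroepithelium and radial glia, was at 34.7, 33.9 and 32.8 CPM in NPC(+) and 19.9, 40.3 and 41 CPM in NR, with a log2 fold change of -0.01 (SE 0.21, adjusted p = 0.970). Without NR replicate 1, the lowest of the 6 libraries, Pax6 passed the adjusted test higher in NR at -0.25 (adjusted p = 0.0529). Nes, the intermediate filament of neural stem cells, was at 236, 224 and 220 CPM against 76.8, 240 and 184 CPM, overlapped between the groups and did not pass the test (0.43, SE 0.28, adjusted p = 0.182). Nes passed it higher in NPC(+) without NR replicate 2 (0.78, adjusted p = 0.0142) and after thinning (0.52, adjusted p = 0.0620). Without the filter on low counts it was at 0.41 (adjusted p = 0.000665), in the run whose p-values are not comparable, as for Sox1.

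Small shifts that did pass were found on both sides. The SoxB1 factor Sox2 was at 81, 76.7 and 86.5 CPM in NPC(+) and 116, 135 and 128 CPM in NR (-0.63, SE 0.10), below the 4-fold limit. Sox21 (-1.9) and the RNA-binding protein gene Msi1 (-1.76) were likewise higher in NR, while Vim (0.57), Hes1 (0.67) and Fabp7 (1.09) were higher in NPC(+). Prom1, which encodes the apical membrane protein prominin, had the largest difference of the list, at 97.4, 172 and 135 CPM in NR and 0.289, 2.04 and 2.0 CPM in NPC(+) (-6.37, SE 0.30, adjusted p = 7.25e-10). Dach1 (-4.16) was the other gene called higher in NR.

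Neuronal transcripts were largely on the NR side. Of 27 neuron and proneural genes, 16 were called higher in NR and 2 in NPC(+), with a median of -2.72. These are 59.3% and 7.41%, against 20.04% and 6.05% over all genes tested. Tubb3, the tubulin of young neurons, was at 101, 143 and 167 CPM in NR and 7.81, 6.9 and 7.0 CPM in NPC(+) (-4.26, SE 0.19, adjusted p = 3.73e-10). The neurofilament gene Nefl was at 69.3, 115 and 114 CPM against 0.868, 1.25 and 1.33 CPM (-6.38). Stmn2, a microtubule regulator of neurons, was at 135, 112 and 145 CPM in NR and at 2 or 3 counts in each NPC(+) library, at least 213-fold higher. NR replicate 1 had the least Tubb3 and Nefl of its group, as for Sox1.

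Proneural bHLH factors did not all go one way. Neurog2 was at 7.26, 16.2 and 17.2 CPM in NR and 0.578, 0.47 and 0.167 CPM in NPC(+), at least 22.1-fold higher, and Neurog1 and Neurod4 were called in the same direction. Neurod1 instead passed the adjusted test higher in NPC(+), at 23.1, 22.6 and 20.2 CPM against 6.77, 7.67 and 8.14 CPM (1.54, SE 0.14, adjusted p = 3.82e-07). The doublecortin gene Dcx, of migrating neurons, was higher in NR by less than 4-fold (-1.89) and past it without NPC(+) replicate 2 (-2.13) or NR replicate 1, and Gap43 overlapped between the groups (-0.3, adjusted p = 0.216). Map2, a dendritic microtubule protein gene, was an exception at 406, 407 and 391 CPM in NPC(+) against 26, 33.6 and 53.9 CPM in NR (3.4, SE 0.28), and the bHLH gene Atoh1 was called higher in NPC(+) at 3.47, 2.19 and 2.5 CPM, at least 22.3-fold.

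Epithelial adhesion and tight junction genes were, beside the pluripotency genes, the most one-sided group. Of 24 listed, 22 were tested, 19 were called higher in NR and none higher in NPC(+). The 19 are 86.4%, against 20.04% over all genes tested. The median was -6.48, or -4.46 with the 10 genes at the NPC(+) floor set to their bounds. Epcam, an epithelial adhesion molecule, was at 216, 114 and 158 CPM in NR and 0, 0.157 and 0.167 CPM in NPC(+), at least 266-fold higher. Cdh1, the epithelial cadherin, was at 354, 203 and 219 CPM against 0.289, 0.314 and 1.33 CPM (-8.53, SE 0.37, adjusted p = 2.93e-10), while its neural counterpart Cdh2 was at 144, 153 and 146 CPM in NPC(+) and 123, 334 and 215 CPM in NR (-0.6). The keratin gene Krt8 lay on the same side, at 291, 538 and 233 CPM in NR and 2.31, 1.41 and 2.0 CPM in NPC(+). Pluripotent cells express Cdh1 and Epcam as well, and the 2 sources cannot be told apart in these libraries.

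Junction genes with a role at the apical side of neuroepithelium were less uniform. Ocln, the occludin gene, was at 6.71, 4.61 and 5.56 CPM in NR with a single count among the NPC(+) libraries, at least 9.18-fold higher. Tjp1, which encodes the junction scaffold ZO-1, was at 86.8, 90.8 and 85.6 CPM in NPC(+) and 103, 99.7 and 80.9 CPM in NR, with overlapping groups and a log2 fold change of -0.11 (SE 0.11, adjusted p = 0.409). The polarity genes Pard3 (-1.23) and Prkci (-0.57) were higher in NR by less than 4-fold.

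Neural crest and mesenchymal transition genes were divided. Of 20 listed, 19 were tested, with 5 called higher in NPC(+) and 9 higher in NR (median -1.69). These are 26.3% and 47.4%, against 6.05% and 20.04% over all genes tested. Zeb1, a repressor of Cdh1, was at 257, 243 and 262 CPM in NPC(+) and 23.3, 33.5 and 33.3 CPM in NR (3.07, SE 0.12, adjusted p = 1.26e-10), and Ets1, Sox5, Msx1 and Tfap2a were called in the same direction. Zeb2 overlapped between the groups (0.08, adjusted p = 0.735). On the NR side stood Tfap2c at 97.9, 60.6 and 70.1 CPM and Foxd3 at 21, 8.64 and 16.8 CPM, each with 3 counts or fewer in every NPC(+) library.

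Mesoderm and endoderm genes were present in NR, and in NSC too. Their summed level was 838 to 1663 CPM in NR, 744 to 1724 CPM in NSC and 235 to 284 CPM in NPC(+). Of 24 listed, 18 were tested, 10 were called higher in NR and none in NPC(+) (median -2.44). The 10 are 55.6%, against 20.04% over all genes tested. T, the brachyury gene of primitive streak and notochord, was at 27.6, 79.8 and 21.6 CPM in NR and 0.578, 0.941 and 1.17 CPM in NPC(+) (-5.51, SE 0.58, adjusted p = 1.32e-06). Sox17, an endoderm factor, was at 17.4, 9.06 and 12.5 CPM in NR and at 0 in NPC(+), at least 21.2-fold higher. The smooth muscle actin gene Acta2 was at 274, 696 and 206 CPM against 1.16, 2.82 and 2.67 CPM (-7.36), and at -6.66 without NR replicate 2. NR replicate 2 was the highest in T and Acta2 and the lowest in Pou5f1, Dppa5a, Nanog and Zfp42. Of 16 endothelial, blood and microglial genes only 7 were tested. Of these, 5 (71.4%) were called higher in NR, 3 of them with the 6 compared libraries alone and 2 after thinning. Among these Pecam1, at 122, 65.7 and 86 CPM in NR, is also expressed by mouse pluripotent cells, and the endothelial Cdh5 was at no more than 1.54 CPM.

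Positional identity genes were called on both sides. Among 24 forebrain and midbrain homeobox genes, 22 were tested, with 6 higher in NPC(+) and 10 higher in NR (median -1.88, or -0.15 with bounds), the latter being 6 after thinning. The shares are 27.3% and 45.5%, against 6.05% and 20.04% over all genes tested. Emx2, a dorsal forebrain factor, was at 11.9, 10.5 and 11 CPM in NPC(+) and 1.17, 1.48 and 1.43 CPM in NR (3.0, SE 0.26), En1, of the midbrain and hindbrain border, at 13.9, 18.2 and 15.3 CPM against 1.91, 1.39 and 2.55 CPM (3.02), and Otx1 was higher by 3.62. Otx2, of forebrain and midbrain and also of primed pluripotent cells, was at 50.6, 22.8 and 33.3 CPM in NR, at least 58-fold higher. Hesx1 was at 6.52, 4.83 and 4.58 CPM in NR with no count in NPC(+).

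The Hox genes, which mark levels from hindbrain to tail, split within clusters. Of 31 hindbrain and spinal cord homeobox genes, 29 were tested, 8 were called higher in NPC(+) and 10 in NR (median -1.1, or -0.93 with bounds). These are 27.6% and 34.5%, against 6.05% and 20.04% over all genes tested. The 8 were Hoxa5, Hoxb5, Hoxb7, Hoxb8, Hoxb9, Hoxc9, Hoxd8 and Hoxd9. Hoxc9 was at 38.8, 32.8 and 37.5 CPM in NPC(+) and 2.83, 5.16 and 4.18 CPM in NR (3.14, SE 0.27, adjusted p = 1.66e-07), and Hoxa5 at 27.2, 28.7 and 32.7 CPM against 1.78, 2.58 and 2.02 CPM (3.78). Hoxb1, at the front of its cluster, was at 10.4, 12.6 and 11.9 CPM in NR, at least 19-fold higher. The other genes called higher in NR, among them Hoxa7, Hoxa9, Hoxa10 and Hoxc8, reached at most 7.41 CPM in any NR library, and only 6 of the 10 were called with the 6 compared libraries alone and 5 after thinning.

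Dorsal and ventral patterning genes were mostly on the NR side, with 17 of 30 called higher there and 2 higher in NPC(+) (median -2.90, or -1.90 with bounds). These are 56.7% and 6.67%, against 20.04% and 6.05% over all genes tested. The NPC(+) share is thus near that of all genes. Shh, the ventral signal of notochord and floor plate, was at 19.3, 72.8 and 21.1 CPM in NR and 0.578, 0.941 and 0 CPM in NPC(+), a log2 fold change of -6.21 that ranged from -7.44 without NPC(+) replicate 2 to -5.31 without NR replicate 2. Nkx6-1, of ventral progenitors, was at 30.0, 81.4 and 58.7 CPM against 4.92, 3.76 and 3.67 CPM (-3.83, SE 0.35), and Irx3 at 50.6, 98.7 and 74.3 CPM against 7.81, 6.58 and 6.83 CPM (-3.42). The Hedgehog effectors Gli1 (-5.36) and Gli2 (-2.38) were called higher in NR, and Gli3 overlapped (0.02, adjusted p = 0.932). The 2 genes on the NPC(+) side were Olig2 and Msx1.

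Genes of the Notch pathway, through which neighbouring cells keep each other from differentiating, were called on both sides. Of 26 genes, 3 were called higher in NPC(+) and 8 in NR (11.5% and 30.8%, against 6.05% and 20.04% over all genes tested). The median was -0.58. Among receptors, Notch1 was at 183, 202 and 195 CPM in NPC(+) and 34.2, 52.7 and 53.7 CPM in NR (2.04, SE 0.27, adjusted p = 1.17e-05). This lies just past the 4-fold limit, and Notch1 was at 1.88 without NR replicate 1 and just under 2 without NPC(+) replicate 2, hence not called. Dll4, described next, likewise fell under the limit at 1.98 without NR replicate 1. Notch2 did not pass the test (0.13, adjusted p = 0.641) and Notch4 was higher in NR (-2.3). Among ligands, Dll4 was at 9.83, 11.3 and 12.5 CPM against 1.72, 3.29 and 2.5 CPM (2.15, SE 0.29) and the ligand-like Dner at 130, 123 and 115 CPM against 11.6, 9.51 and 15.9 CPM (3.3), whereas Dll3 (-2.64) and Jag2 (-4.68, and -5.31 without NPC(+) replicate 3) were higher in NR. Of the target genes, Hes5 was at 92.8, 83.1 and 73.5 CPM in NPC(+) and 19.8, 37.7 and 55.8 CPM in NR (1.12, SE 0.29), which passed the adjusted test below the 4-fold limit.

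EGF and FGF signalling genes, which belong to the growth factors that sustain NPC cultures, were called on both sides. Of 35 genes listed, 34 were tested, with 3 called higher in NPC(+) and 9 in NR (8.82% and 26.5%, near the 6.05% and 20.04% over all genes tested, with a median of -0.19 for both). Egfr, the EGF receptor, was at 154, 151 and 147 CPM in NPC(+) and 31.8, 12.2 and 24.1 CPM in NR (2.75, SE 0.24, adjusted p = 2.64e-07), and Spry4, a feedback inhibitor, at 153, 164 and 173 CPM against 18.8, 11.6 and 19.5 CPM (3.3). The related Spry1 (1.73) and Spry2 (1.08) and the downstream factors Etv4 (1.56) and Etv5 (1.46) passed the adjusted test in the same direction. The ligand gene Areg was at 6.07, 2.67 and 4.33 CPM in NPC(+) and at 0.123, 0.0645 and 0.14 CPM in NR (5.2). FGF ligand genes called higher in NR included Fgf15 at 15.8, 12.4 and 19.4 CPM and Fgf8 at 9.04, 4.38 and 10.2 CPM, each with 3 counts or fewer in the NPC(+) libraries. The study names the same kit medium for the populations, with EGF, bFGF and laminin added for the expansion of NPCs. Culture conditions and cell type cannot be told apart here.

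Wnt and BMP genes were higher in NR where they were called at all, with 1 exception. Of 37 Wnt pathway genes, 36 were tested, 17 were called higher in NR and 1 in NPC(+) (median -2.15). These are 47.2% and 2.78%, against 20.04% and 6.05% over all genes tested. The exception was Wif1, a secreted Wnt inhibitor, at 76.6, 79 and 76.2 CPM in NPC(+) and 1.41, 1.48 and 1.29 CPM in NR (5.79, SE 0.17, adjusted p = 1.15e-11). A second gene joined it without NR replicate 2. Sfrp1, another secreted inhibitor, went the other way, at 298, 632 and 439 CPM in NR and 41.7, 40.8 and 45.8 CPM in NPC(+) (-3.41), and the target gene Axin2 was higher in NPC(+) by 1.67. Of 31 BMP and TGF-beta genes, 14 (45.2%) were called higher in NR and none in NPC(+) (median -1.43). Lefty1, an inhibitor of Nodal signalling, was at 389, 176 and 285 CPM in NR and 0.868, 0.784 and 0.50 CPM in NPC(+) (-8.66, SE 0.51), and Nodal itself was at 73.1, 37.4 and 55.6 CPM, at least 90.4-fold higher. Both are also genes of pluripotent cells.

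Among 14 DNA methylation enzymes and readers, 4 were called higher in NR (28.6%, against 20.04% over all genes tested) and none in NPC(+) (median -0.66), with 1 called higher in NPC(+) without NR replicate 1. Dnmt3b, a de novo methyltransferase gene, was at 884, 325 and 613 CPM in NR and 9.54, 9.25 and 9.16 CPM in NPC(+) (-6.03, SE 0.38, adjusted p = 8.49e-09). Its relative Dnmt3a was at 358, 202 and 284 CPM against 59.9, 60.0 and 67 CPM (-2.17, SE 0.20) and fell under the 4-fold limit at -1.94 without NR replicate 1, and Dnmt3l was at least 151-fold higher in NR. The maintenance enzyme gene Dnmt1 differed little (-0.28, SE 0.10). Among genes of oxidative demethylation, Tet1 was higher in NR at 123, 93.8 and 136 CPM against 16.8, 15.5 and 14.3 CPM (-2.93), whereas Tet3 was higher in NPC(+) at 89.1, 78.4 and 89.1 CPM against 18.6, 34.6 and 29.2 CPM (1.63), below the 4-fold limit.

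Of 23 Polycomb genes, 5 were called higher in NR (21.7%, near the 20.04% over all genes tested) and none in NPC(+), with 1 in NPC(+) without NR replicate 1 or 3. They were Phf19, Cbx7, Phc1, Jarid2 and Mtf2, with Jarid2 at 709, 445 and 541 CPM in NR and 75.8, 77.9 and 75.7 CPM in NPC(+) (-2.88, SE 0.17). Ezh2, the catalytic subunit, differed little (-0.32, SE 0.08). Cbx6 (1.9) and Bmi1 (1.61), subunits of the other Polycomb complex, passed the adjusted test higher in NPC(+) without reaching 4-fold.

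Genes of the Lin28 and let-7 timing system, in which Lin28 proteins hold back a miRNA that rises as progenitors age, were higher in NR. Of 14 listed, 13 were tested and 9 were called higher in NR, none in NPC(+) (median -3.59). The 9 are 69.2%, against 20.04% over all genes tested. Lin28a was at 79.8, 80.2 and 86 CPM in NR and 0.289, 0.314 and 0.167 CPM in NPC(+), at least 134-fold higher. Igf2bp1, an RNA-binding protein gene and let-7 target, was at 349, 438 and 329 CPM against 2.31, 3.45 and 2.67 CPM (-7.0, SE 0.22, adjusted p = 2.01e-11), and Mycn was at 226, 245 and 215 CPM against 6.07, 9.56 and 7.67 CPM (-4.84). In NSC, where the summed pluripotency genes were well below NR, Lin28a was at 65.7 ± 33.8 CPM. Hmga2, another let-7 target, overlapped between the groups (-0.45, adjusted p = 0.228).

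Imprinted genes, which are expressed from 1 parental copy, were also one-sided. Of 24, 17 were called higher in NR and none in NPC(+) (median -4.09, or -3.43 with bounds). The 17 are 70.8%, against 20.04% over all genes tested. H19 was at 90.7, 55.4 and 92.1 CPM in NR, at least 130-fold higher, and its neighbour Igf2, a growth factor gene, was at 52.7, 111 and 85.3 CPM against 4.92, 5.02 and 7.0 CPM (-3.86, SE 0.27). Meg3 was at 114, 148 and 149 CPM against 1.16, 1.25 and 1.67 CPM (-6.62), and Rian, from the same locus, had no count in NPC(+). Peg10 (0.12, adjusted p = 0.516) and Mest (-0.55, adjusted p = 0.0866) overlapped between the groups, and Sgce, the neighbour of Peg10, was higher in NPC(+) by 0.9. Thus the imprinted genes did not move as 1 block.

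Extracellular matrix genes were called in both directions. Their summed level was 5716 to 12736 CPM in NR, 4753 to 8432 CPM in NSC and 2268 to 2340 CPM in NPC(+). Of 36, 22 were called higher in NR and 4 in NPC(+), and all 36 passed the adjusted test (median -3.22). The called shares are 61.1% and 11.1%, against 20.04% and 6.05% over all genes tested. The 4 were Bcan, Ncan (3.31), Tnr (3.5) and Tnc (2.42), which encode the brevican, neurocan and tenascins of neural tissue. Col1a1, a fibrillar collagen of connective tissue, was at 2983, 413 and 2123 CPM in NR and 7.23, 7.53 and 9.0 CPM in NPC(+) (-7.84, SE 0.74, adjusted p = 4.33e-07). Col3a1 was at 2726, 784 and 1700 CPM against 13, 16.8 and 21.5 CPM (-6.63). For both, NR replicate 2 held far less than the other two. Col2a1, of cartilage and notochord, was instead highest in NR replicate 2, at 236, 584 and 216 CPM against 2.31, 3.14 and 3.17 CPM in NPC(+).

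Cell cycle genes mostly differed by less than 4-fold. Of 32, 3 were called higher in NPC(+) and 2 in NR, against 6.05% and 20.04% of all genes, with a median of -0.39. At any fold 21 passed the adjusted test higher in NR and 7 higher in NPC(+), against 42.9% and 30.8% of all genes, and 4 did not pass. The proliferation marker Mki67 was at 168, 161 and 176 CPM in NPC(+) and 179, 211 and 204 CPM in NR (-0.24, adjusted p = 0.0510), and Ccna2 overlapped (0.0, adjusted p = 0.975). Ccnd1, the G1 cyclin D1 gene, was at 217, 196 and 213 CPM against 38, 48 and 56.6 CPM (2.13, SE 0.16). Inhibitor genes went both ways, with Cdkn2a (3.11) and Cdkn2c (3.3) higher in NPC(+) and Cdkn1c (-7.06) higher in NR. Ccnb2, a mitotic cyclin gene, stood apart from the other mitotic genes at 3.18, 2.98 and 2.33 CPM in NPC(+) and 212, 175 and 188 CPM in NR (-6.1, SE 0.15, adjusted p = 1.8e-12), while Ccnb1 differed by -0.54.

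Lipid and sugar metabolism genes mostly passed the test on opposite sides. Of 22 sterol and fatty acid synthesis genes, 18 passed the adjusted test higher in NPC(+) and 1 higher in NR, against 30.8% and 42.9% of all genes (median 0.87). Only Fdps, a farnesyl diphosphate synthase, was called, at 81.3, 82.6 and 82.7 CPM against 18.3, 18 and 18.1 CPM (2.18, SE 0.13), and 2 genes were called without NR replicate 2. Sqle, squalene epoxidase, was at 1519, 1582 and 1388 CPM against 428, 427 and 407 CPM (1.83). Of the 23 glycolysis and hypoxia genes tested, 7 were called higher in NR (30.4%, against 20.04% over all genes tested) and none in NPC(+). At any fold, 20 passed the adjusted test higher in NR (median -1.20). The glucose transporter gene Slc2a3 was at 579, 362 and 482 CPM in NR and 7.52, 7.37 and 8.17 CPM in NPC(+) (-5.94, SE 0.25).

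Of 25 interferon and MHC class I genes, 11 were called higher in NR, 7 after thinning, and none in NPC(+) (median -1.98). The 11 are 44.0%, against 20.04% over all genes tested. Bst2, a restriction factor gene, was at 35.9, 24.8 and 29.7 CPM in NR, at least 49.1-fold higher. Of 18 integrated stress response genes 1, Sesn2 (-2.19), was called, higher in NR (5.56%, under the 20.04% over all genes tested). Atf4 was at 529, 490 and 468 CPM in NPC(+) against 250, 231 and 210 CPM in NR (1.11). Of 19 immediate early genes, which answer handling and sorting within minutes, 1 was called higher in NPC(+) and 3 in NR (5.26% and 15.8%, no more than the 6.05% and 20.04% over all genes tested, with a median of -0.12). The 1 was Myc, at 308, 316 and 294 CPM against 81.1, 76.9 and 62.7 CPM (2.06, SE 0.15), which fell just under the 4-fold limit without NR replicate 3. Klf2, also a pluripotency factor, was at 491, 336 and 405 CPM in NR and 19.96, 25.1 and 20.2 CPM in NPC(+) (-4.23).

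Among 25 genes that the study itself names, 5 were called higher in NPC(+), 3 without NR replicate 1, and 7 in NR. Of all genes tested, 6.05% were called higher in NPC(+) and 20.04% higher in NR, the latter against 28.0% of these 25. The study chose some of the genes it names on these libraries, so their directions are not independent evidence. Those not yet described include Actc1, a muscle actin gene that the activator was aimed at in other cells, at 11.1, 46.4 and 12.8 CPM in NR and 0, 0.157 and 0.667 CPM in NPC(+) (-6.2, with -7.79 without NPC(+) replicate 3 and -5.23 without NR replicate 2). Raet1d, a ligand of an immune receptor, was at 14.8, 13.3 and 15.5 CPM in NPC(+) and 3.01, 3.26 and 2.58 CPM in NR (2.3, SE 0.21). The main text of the study writes of Raet1a rather than Raet1d. Nuak2 (-1.64), Neurl1a (-1.28), Nnat (-1.28) and Fgf13 (-1.26) passed the adjusted test higher in NR, and Trnp1 (0.81) higher in NPC(+), all below the 4-fold limit.

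The 10 largest fitted folds in each direction were taken from called protein-coding genes with at least 20 CPM in the higher group and no overlap. In NPC(+) they were Olfr1349, Cym, Olig1, Bcan, Clic5, Mlc1, Grm5, Ptgds, Kcnd3 and Gimap6. Mlc1, a membrane protein gene of astrocyte endfeet, was at 272, 306 and 285 CPM against 0.677, 1.06 and 1.4 CPM (8.0, SE 0.16, adjusted p = 3.89e-13), Grm5, a glutamate receptor gene, at 65.9, 65.2 and 65.5 CPM against 0.369, 0.483 and 0.168 CPM (7.61), and Ptgds, prostaglandin D2 synthase, at 45.1, 47.5 and 51.7 CPM against 0.308, 0.387 and 0.253 CPM (7.23). These 3 were also high in NPC, at 281 ± 18, 50.5 ± 6.69 and 56.6 ± 1.37 CPM.

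Others of the 10 were not. Cym, which encodes the stomach protease chymosin, was at 157, 143 and 146 CPM in NPC(+) (9.71, SE 0.21, adjusted p = 7.25e-13), at 0.308, 0.161 and 0.112 CPM in NR and at 0.109 ± 0.105 CPM in NPC. Olfr1349, an odorant receptor gene, was at 26.6, 24.6 and 22.7 CPM in NPC(+), at 0 in all 3 NR libraries, at least 202-fold higher, and at 3.65 ± 0.287 CPM in NPC. Gimap6, a GTPase gene of lymphocytes, was at 25.5, 22.6 and 21.8 CPM in NPC(+) against 0.431, 0.0322 and 0.14 CPM in NR (7.09, and 7.94 without NR replicate 1) and 0.752 ± 0.28 CPM in NPC. These were thus high in NPC(+) alone among the 4 groups, a comparison with NPC for which no test is given here.

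In NR the 10, which included Pla2g1b, Rnf17, Nup62cl, Trim25, Stk26, Dsg2, Pir, Anxa3 and Col8a2, were all without a count in any NPC(+) library. They were at least 39.7-fold to 111-fold higher in NR. A fitted fold against 0 counts depends on the prior count, and genes with a few counts in NPC(+), such as Epcam, Stmn2 and Fgf4 above, had larger lower bounds than these 10. Pla2g1b, a secreted phospholipase gene, was at 94.8, 39.7 and 69.5 CPM in NR and 4.85 ± 2.61 CPM in NSC, and Dsg2, a desmosome cadherin gene, at 35.9, 21.4 and 25.5 CPM and 2.38 ± 0.671 CPM. For each of the 10 the mean over the NSC libraries was below the lowest NR value.

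Differences also followed chromosomes. Over genes with a mean above 8 CPM, and relative to the median over all of them, the median log2 fold change was 0.78 for the 418 genes of chromosome 15, 0.46 for chromosome 13, 0.33 for chromosome 1 and 0.28 for chromosome 3. It was -0.49 for the 591 genes of chromosome 8, which holds Sox1, -0.44 for chromosome 16, -0.41 for chromosome 12 and -0.35 for chromosome 14. All other autosomes lay within -0.17 and 0.12, and chromosome X was at -0.27.

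To see which group departed, each library was set against the mean of the 3 NSC libraries. NR libraries stayed between -0.12 and 0.07 on every autosome, and at 0.08 to 0.22 on chromosome X. NPC(+) libraries were at 0.73 to 0.78 on chromosome 15 and at -0.58 to -0.55 on chromosome 8, where NPC lay close at 0.67 to 0.70 and -0.59 to -0.55. On chromosome 16, in contrast, NPC(+) was at -0.42 to -0.36 and NPC at -0.04 to -0.01. Thus part of the chromosome pattern was common to both NPC groups and part was seen in NPC(+) only. These medians are descriptions with no test, and how they bear on single genes, Sox1 and the chromosome 16 gene Olig1 among them, was not tested.

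**Figure D4:**
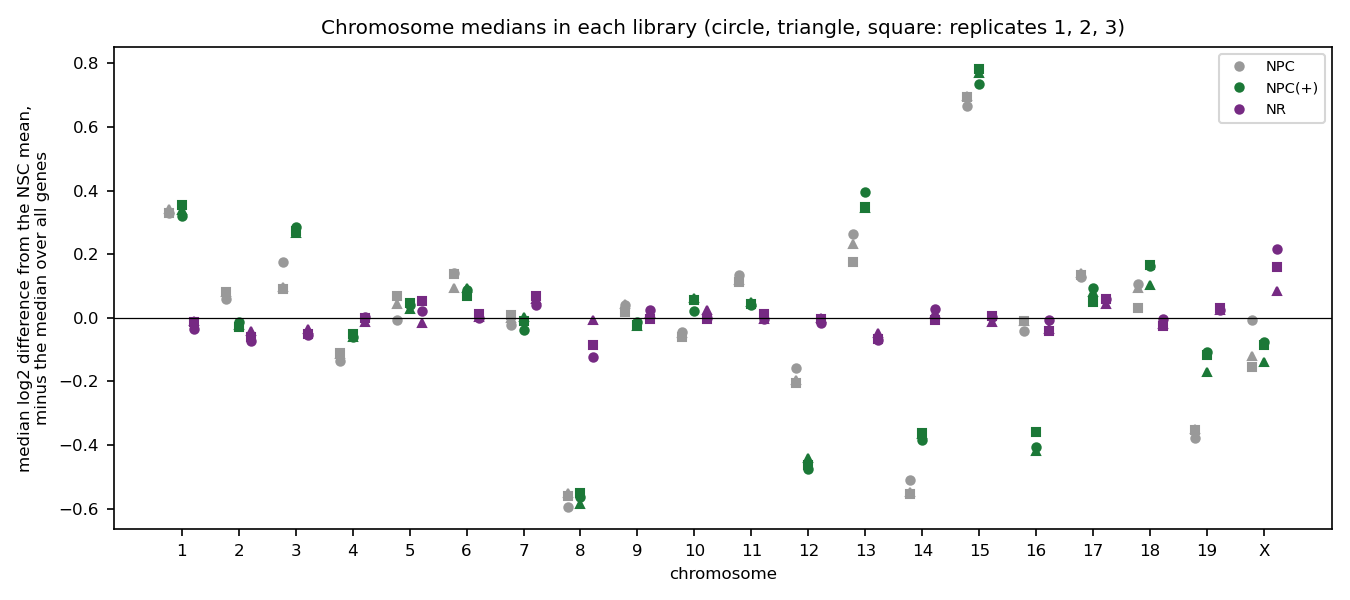
For each chromosome (horizontal axis) and each library of 3 groups, the median over genes of the log2 difference from the mean of the NSC libraries, minus the median over all genes (vertical axis, log2 units). NPC(+) and NPC stood at 0.67 or above on chromosome 15 and at -0.55 or below on chromosome 8, chromosome 16 was low in NPC(+) alone, and NR libraries lay near 0 on the autosomes.

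The median exonic length was 3441.5 bases for genes higher in NPC(+), 3521.5 for those higher in NR and 3995 for all tested, and the median GC content was 49.3%, 51.3% and 49.6%.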

How the data were processed

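RNA was sequenced by the authors as 12 libraries in 4 groups of 3, after isolation with the PicoPure kit and amplification with SMART-Seq. The authors deposited whole-number read counts per Ensembl gene without normalization. The submitters' processing notes name STAR 2.6, RSEM 1.1.14 and mm10, with no role or order, so the counts may be rounded estimates. The annotation and the strand setting are not given in the sources used here, and reads of overlapping or near-identical genes may be split in a way that is not known. Total counts were 3407066 to 6315574 in NPC(+) and 16707006 to 34594885 in NR, and CPM of low genes are correspondingly coarse in NPC(+).

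Symbols, coordinates, exonic lengths and GC content came from GENCODE M21 for GRCm38. For 563 genes, with 0.124% of all counts, no symbol was found. The promoter came from RefSeq. A check of promoter CpG content over called genes was void, since 59.5% of those higher in NPC(+), 69.5% of those higher in NR and 70.2% of all tested matched the promoter table, under the 80% required.

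Samples were grouped by their labels. Counts were scaled by TMM, genes kept by filterByExpr over the 4 groups, and NPC(+) tested against NR with glmQLFit and glmQLFTest on all 12 libraries (edgeR 4.0.16, limma 3.58.1, R 4.3.3), with Benjamini-Hochberg adjustment over 17003 genes and a prior count of 0.125. A call needed a fold over 4 with a p under 0.05 and an adjusted p under 0.1. A group with 3 counts or fewer in each library was taken as at the floor, and the fold is then a lower bound, computed as the mean CPM of the higher group over the mean CPM that 3 counts give in the other. On simulated data with 200 genes changed by 3 on the log2 scale, 100% of rises and of falls were called, with 3 false calls of 17003. The changed genes lay above a minimum level and were balanced in direction, with a single dispersion for all genes and groups. Genes absent from NPC(+), the uneven split of calls and the unequal spread of the groups were thus not simulated.

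Named genes were those the study names, from each other list up to 4 called members per direction with the largest difference and members needed to say what a list did not do, and the 10 largest differences per direction among called protein-coding genes with at least 20 CPM in the higher group and no overlap. Some genes that this rule names are not reported here. Lists were written from general knowledge. The groups compared, the lists and the tests were chosen with earlier results of these data known. Alternatives were DESeq2 1.42.0, other scalings, filters, thresholds and prior counts, thinning, the 6 libraries alone, a replicate block and leaving out each library. Same-numbered libraries deviated together with correlations of 0.0034, 0.0147 and 0.0446, and libraries of different numbers with -0.0271 to 0.0112. All were small, and whether the numbers pair the libraries could not be settled from them. Where replicates were not separate cultures, p-values measure only the spread between libraries. Columns, tables and figures were handled in Python 3.11.15 with pandas 2.3.3 and matplotlib 3.10.9.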

Additional observations from a re-analysis of the deposited data

How the results depend on the processing

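The counts of 1029 genes higher in NPC(+) and 3408 higher in NR stayed within 1.5 times under DESeq2, RLE and upper-quartile scaling, a prior count of 2, no filter on low counts and the 6 libraries alone. They were 481 and 365 with at least 10 counts in every library, where genes absent from NPC(+) are not tested by construction, and the share of calls higher in NR fell from 76.8% to 43.1%. Thinning to the smallest total gave 750 and 2026, glmTreat against a fold of 4 gave 676 and 2715, and a fold over 2 gave 2755 and 4828 (63.7% higher in NR). Leaving out 1 library gave 1030 to 1197 genes higher in NPC(+) and 3381 to 3658 higher in NR. With a replicate block 1036 and 3403 genes were called. Since it is not known whether the replicate numbers pair the libraries, this says nothing of a stronger or weaker effect.

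Of 168 named genes, 143 kept direction and side of the test under every alternative run, and 2515 of 2549 gene and setting pairs did. Pax6, near 0, changed sign at 0.054 with the 6 libraries alone, 0.0079 with the replicate block, 0.021 after thinning and between -0.25 and 0.20 without 1 library. Of 896 list counts under an alternative, 836 stayed within 1.5 times. The fitted fold of 39 named genes moved over 1.5 times without 1 library, 27 of them with a group at the count floor.
The NPC(+) depth limits what can be said of genes low there, since a level under 0.613 CPM on average is within 3 counts.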
